A study of Homo sapiens with 4 samples.

Results

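Prostaglandins are short-lived lipid signals made from arachidonic acid, and 9 genes that release their precursor, make prostaglandin E2, break it down or carry its receptors were followed in A549 cells. The genes were PLA2G4A, PTGS1, PTGS2, PTGES, PTGES2, HPGD, PTGR1, PTGER2 and PTGER4, matched by symbol to 9 of the 57905 genes in the deposited tables. They had been picked on earlier results of the same comparison between GMI-treated and control cells, so their differences are given here as a description, without p-values, and support nothing by themselves. A549 is an established human lung adenocarcinoma line, here in serum-containing medium. GMI, a protein with immunomodulatory activity from Ganoderma microsporum, a fungus, was applied at 0.6 µM for 24 h in 2 libraries, and 2 libraries of the same line were labelled control at 24 h. The treatment protocol in the labels reads the same for all 4 libraries and names GMI, so the groups rest on the titles and the treatment characteristic, and no vehicle for the controls is stated. Whether the replicates are separate cultures is not stated in the labels. P-values given for other genes therefore measure only the spread between these libraries, which may be technical.

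In the pathway as generally described, the cytosolic phospholipase PLA2G4A frees arachidonic acid from membranes, and the cyclooxygenases PTGS1 and PTGS2 turn it into prostaglandin H2. Terminal synthases such as PTGES then form prostaglandin E2, which acts on G protein-coupled receptors that include those encoded by PTGER2 and PTGER4. The dehydrogenase HPGD oxidises the signal to an inactive keto form, which PTGR1 reduces further. In lung adenocarcinoma, PTGS2 is known as an inducible gene of inflammation and HPGD as its catabolic counterpart.

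RNA for the releasing and synthesising enzymes PLA2G4A, PTGS2 and PTGES was higher in GMI-treated cells, and RNA for the degrading enzyme HPGD was lower. The mean level was 2.60 times that of control for PTGS2, 1.74 times for PTGES, 1.49 times for PLA2G4A and 0.601 times for HPGD. RNA of PTGES2 and PTGR1 differed less, at 0.858 and 0.883 times control. PTGS1 was listed at 0 in every library and the receptor genes PTGER2 and PTGER4 were near 0. In RNA of whole cultures, a change in the number of cells that carry a transcript and a change in the amount per cell cannot be told apart.

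The upstream regions of the 4 genes whose RNA differed most are shown because 3 of these genes were higher together and 1 was lower. They are the 250 bases before a RefSeq start site on GRCh38.p14, read 5′ to 3′ on the strand of the gene. The region of PTGS2 is chr1:186680424-186680673 on the minus strand, that of PTGES chr9:129753043-129753292 on the minus strand and that of PLA2G4A chr1:186828699-186828948 on the plus strand. For HPGD, which has 2 start sites in the table, the first listed is shown, chr4:174522489-174522738 on the minus strand. Capitals mark matches, on either strand, to the TATA box TATAAA, the cAMP response half-site CGTCA or the C/EBP pattern TTNCNNAA.
PTGS2: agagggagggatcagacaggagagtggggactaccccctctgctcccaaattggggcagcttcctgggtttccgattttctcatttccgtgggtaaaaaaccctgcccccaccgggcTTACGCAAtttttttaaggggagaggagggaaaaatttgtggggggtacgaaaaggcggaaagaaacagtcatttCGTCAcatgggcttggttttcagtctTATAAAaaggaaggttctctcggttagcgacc
PTGES: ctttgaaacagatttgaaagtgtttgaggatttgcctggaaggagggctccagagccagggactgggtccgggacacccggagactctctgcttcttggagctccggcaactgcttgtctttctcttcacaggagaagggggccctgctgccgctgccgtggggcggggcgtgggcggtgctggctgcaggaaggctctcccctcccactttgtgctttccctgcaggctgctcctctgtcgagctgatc
PLA2G4A: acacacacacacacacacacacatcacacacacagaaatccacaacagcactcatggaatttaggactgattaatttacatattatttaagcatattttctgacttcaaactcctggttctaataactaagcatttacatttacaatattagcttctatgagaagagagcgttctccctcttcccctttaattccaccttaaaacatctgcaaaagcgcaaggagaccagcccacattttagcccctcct
HPGD: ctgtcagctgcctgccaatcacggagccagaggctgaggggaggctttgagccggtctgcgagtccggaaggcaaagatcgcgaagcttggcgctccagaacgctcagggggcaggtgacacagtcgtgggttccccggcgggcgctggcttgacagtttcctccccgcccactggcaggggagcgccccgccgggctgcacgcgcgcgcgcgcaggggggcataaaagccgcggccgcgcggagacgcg

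Of these 4 regions, PTGS2 alone held capitals, and it held all 3 patterns. TATAAA lay 32 to 27 bases before its start, CGTCA 58 to 54 bases before, and TTACGCAA, a match to the C/EBP pattern, 133 to 126 bases before. The half-site shares bases with an E-box, CACATG (pattern CANNTG), 55 to 50 bases before the start. The shown regions of PTGES, PLA2G4A and HPGD held E-boxes as well, so this pattern was not particular to PTGS2. Among 35116 RefSeq regions of the same length, 10.7% held TATAAA, 21.2% CGTCA, 33.2% the C/EBP pattern and 61.8% an E-box. PTGES held the GC box GGGCGG at 2 places, 89 to 84 and 78 to 73 bases before its start, and the HPGD region held it once on the opposite strand, against 42.6% of all regions. The second HPGD start had a CGTCA 77 to 73 bases before it. The AP-1 pattern TGANTCA, held by 6.6% of all regions, was in none of the 13 regions of the 9 genes. A match is a string of letters and does not show that a factor binds.

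The libraries had denominators of 20560000 to 24090000 fragments, read from the steps of the FPKM values, and 11301 to 11472 genes reached 1 FPKM in each. FPKM scales fragments by gene length and by library depth, so levels of different genes can be set side by side. The 6 epithelial markers were uneven. KRT8 lay between 1841 and 1981 FPKM, KRT18 at 885 and 846 FPKM in the controls and 740 and 700.5 with GMI, and CDH1 between 1.96 and 2.55 FPKM. CLDN4 stood at 0.99 and 1.34 FPKM in the controls and 4.02 and 4.04 with GMI, while KRT19 (0.36 to 0.96) and EPCAM (0.29 to 0.35) stayed under 1 FPKM. Of 8 alveolar type II markers, ABCA3 alone passed 1 FPKM (6.95 to 9.47), and SFTPC, SFTPB and NKX2-1 did not exceed 0.05. Fibroblast markers summed to 1.27 to 1.36 FPKM in every library. The 3 of 4 endothelial markers that were matched summed to at most 0.07, and PECAM1 was not matched by symbol. The 8 leukocyte markers summed to 3.21 and 3.21 FPKM in the controls and 6.37 and 4.57 with GMI, mostly through CD14, and 3 of them, PTPRC, CD3E and MS4A1, were listed at 0 throughout. The part of these markers in the results on prostaglandin genes was not tested.

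PLA2G4A (ENSG00000116711), which supplies free arachidonic acid to the cyclooxygenases, stood at 9.83 and 10.8 FPKM in the controls and at 14.2 and 16.5 FPKM in the GMI libraries. The groups did not overlap, but GMI replicate 2 lay well above GMI replicate 1. The means were 10.3 ± 0.665 and 15.3 ± 1.63 FPKM (SD, n = 2 per group, likewise for later means). The log2 fold change was 0.53 (SE 0.091), on the log2(FPKM + 1) scale used for every fold change here. For genes of low FPKM the added 1 makes the change look smaller than it is. Of the 4 genes that differed most, PLA2G4A was the most variable between replicates: leaving out 1 library moved its log2 fold change between 0.43 and 0.63.

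PTGS2 (ENSG00000073756), cyclooxygenase 2, was the member with the largest difference. It stood at 13.4 and 14.9 FPKM in the controls and at 35.6 and 37.9 FPKM after GMI. Both GMI libraries held more than either control by far more than the distance between replicates. These levels stand for about 1455 and 1886 fragments in the controls and 4105 and 4164 with GMI, so counting error was small. The means of 14.1 ± 1.01 and 36.7 ± 1.56 FPKM gave a log2 fold change of 1.32 (SE 0.073), rank 19 from the top among the 11598 genes tested. In the controls 74.9% of tested genes had a lower level than PTGS2, and in the GMI libraries 89.6% did.

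PTGS1 (ENSG00000095303), the other cyclooxygenase, was listed at 0 in all 4 libraries. With 5791 nt of exons in GENCODE 29, a count of 0 allows up to 3 fragments, or 0.0215 to 0.0252 FPKM per library, a bound for counting error only. None of its exon bases overlaps another gene in that annotation, and 0 of 15 housekeeping genes were listed at 0 in any library. PTGS2 was thus the only cyclooxygenase RNA detected at this depth, in treated and untreated cells alike.

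The 3′ untranslated region of PTGS2 RNA is known for AU-rich elements that shorten its life, and its first 30 bases, from the GENCODE 29 transcript, are shown because they hold 3 overlapping copies of the core motif, in capitals.
PTGS2: aagtctaatgatcatATTTATTTATTTAta
Over the whole region of 2562 nt there were 22 copies of ATTTA, a number reached by 2.3% of 10020 tested coding genes. The other members differed in this feature. PLA2G4A had 4 copies in 473 nt and PTGR1 3 in 154 nt, while HPGD had 5 in 1779 nt, PTGES 1 in 1280 nt and PTGES2 0 in 452 nt. Per kilobase, PTGS2 (8.59) and PLA2G4A (8.46) were alike, and 1.5% and 1.6% of genes were at least as dense. PTGR1 was denser still, at 19.5 per kilobase in a short region.

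PTGS2 and PLA2G4A are neighbours on chromosome 1 in GENCODE 29, with a single annotated gene between them. That gene is PACERR (ENSG00000273129), a long non-coding RNA that starts beside the PTGS2 start on the opposite strand and is known as a regulator of PTGS2. It was looked at after its values were seen. PACERR stood at 0.59 and 0.60 FPKM in the controls and at 2.0 and 1.34 FPKM after GMI. This is about 10, 12, 36 and 23 fragments, so its size is uncertain. Its log2 fold change was 0.73 (SE 0.143). PACERR reached 1 FPKM only in the GMI libraries, so it passed the filter only through the group where it was high. No p-value from the filtered fit is therefore given for it. With no filter its limma adjusted p was 0.161, in a fit that called 1 of 26758 genes and 0 of 8 members. The strand setting of the counting is not given in the sources used here, and reads from the 2 strands cannot be told apart without it, although the annotated exons of PTGS2 overlap no other gene. Another 4 members, PTGS1, PTGES, PTGES2 and PTGR1, lie on chromosome 9.

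**Figure D1:**
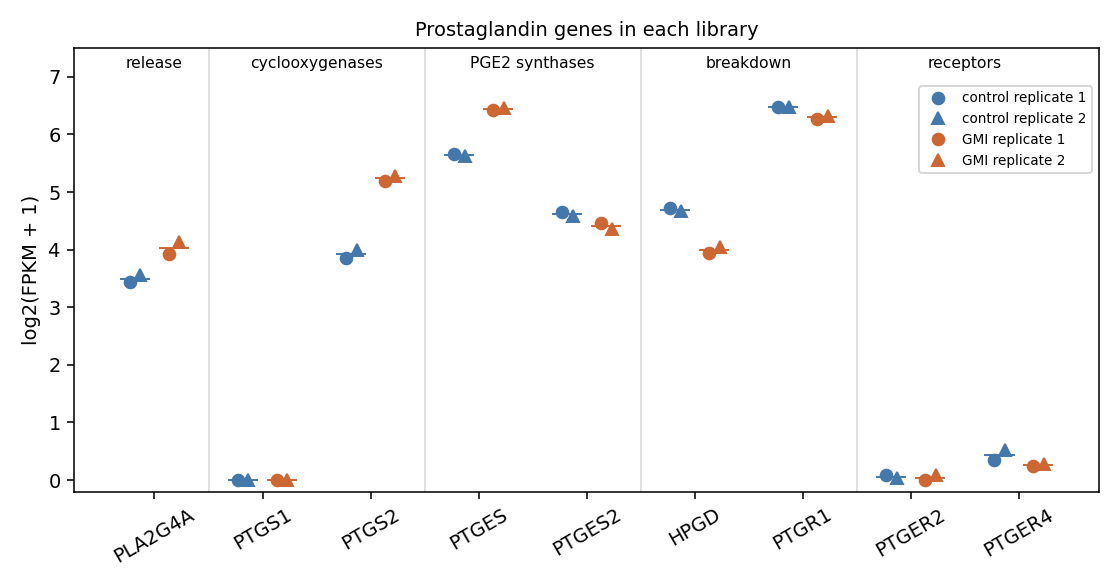
Level of each of the 9 genes in every library as log2(FPKM + 1), ordered by step of the pathway; circles are replicate 1, triangles replicate 2, and short lines the group means. PLA2G4A, PTGS2 and PTGES sit higher in both GMI libraries, HPGD, PTGES2 and PTGR1 lower, and PTGS1, PTGER2 and PTGER4 lie at or near 0.

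PTGES (ENSG00000148344), the inducible microsomal prostaglandin E synthase that works with PTGS2, stood at 49.8 and 48.6 FPKM in the controls and at 84.7 and 86.8 FPKM after GMI. Replicates were close in both groups and the groups lay far apart. The means of 49.2 ± 0.820 and 85.7 ± 1.53 FPKM gave a log2 fold change of 0.79 (SE 0.056), with 98.8% of tested genes having a lower one. PTGES was already the second most abundant member in untreated cells, above 92.4% of tested genes, and became the most abundant with GMI.

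PTGES2 (ENSG00000148334), a membrane-associated prostaglandin E synthase described as constitutive, did not share this direction. It stood at 24.1 and 23.0 FPKM in the controls and at 20.9 and 19.5 FPKM with GMI. The groups did not overlap, by a margin little larger than the distance between replicates. The log2 fold change was -0.21 (SE 0.067) and did not pass the adjusted threshold over all genes. The ratio of PTGES to PTGES2 was 2.06 and 2.11 in the controls and 4.04 and 4.46 in the GMI libraries.

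HPGD (ENSG00000164120), the enzyme that starts prostaglandin inactivation and is known as a suppressor of prostaglandin signalling in epithelial tumours, stood at 25.4 and 24.4 FPKM in the controls and at 14.4 and 15.5 FPKM after GMI. Both treated libraries were below both controls by far more than the distance between replicates. The means of 24.9 ± 0.707 and 14.96 ± 0.792 FPKM gave a log2 fold change of -0.70 (SE 0.068), and 1.1% of tested genes had a lower one. Leaving out 1 library moved it between -0.75 and -0.65.

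PTGR1 (ENSG00000106853), a reductase of the keto products that also acts on leukotriene B4, was the most abundant member in untreated cells. It stood at 88.3 and 88.2 FPKM in the controls and at 76.4 and 79.3 FPKM with GMI. The groups did not overlap, yet the difference was small, with a log2 fold change of -0.18 (SE 0.056) that did not pass the adjusted threshold over all genes. The ratio of PTGR1 to HPGD was 3.48 and 3.62 in the controls and 5.31 and 5.11 with GMI.

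RNA of the receptor genes was near 0. PTGER4 (ENSG00000171522), the receptor EP4, stood at 0.27 and 0.44 FPKM in the controls and at 0.18 and 0.21 with GMI, or about 22, 42, 16 and 17 fragments. The groups did not overlap, and control replicate 2 was far above control replicate 1, so no difference is read from these values. Its pseudogene PTGER4P2 was listed at 0.96 and 0.16 FPKM in the controls and at 0 in both GMI libraries. Near-identical copies can share reads, which makes the PTGER4 values uncertain. PTGER2 (ENSG00000125384), the receptor EP2, had 0.06, 0.02, 0 and 0.06 FPKM in control replicates 1 and 2 and GMI replicates 1 and 2, or about 3, 1, 0 and 3 fragments, which does not exceed the 3 fragments that a count of 0 allows.

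The order of levels changed with treatment. In the controls it ran from PTGR1 through PTGES, HPGD, PTGES2 and PTGS2 to PLA2G4A, where the lowest HPGD value (24.4 FPKM) lay just above the highest of PTGES2 (24.1), so these neighbours were hardly apart. With GMI it ran from PTGES through PTGR1, PTGS2 and PTGES2 to PLA2G4A and HPGD, where the ranges of PLA2G4A (14.2 to 16.5 FPKM) and HPGD (14.4 to 15.5) overlapped. PTGS2 RNA was 0.53 and 0.61 times HPGD RNA in the controls and 2.48 and 2.44 times HPGD RNA in the GMI libraries. PTGES RNA was 1.96 and 1.99 times HPGD RNA in the controls and 5.88 and 5.59 times in the GMI libraries. PTGES exceeded PTGS2 in every library, by 3.71 and 3.27 times in the controls and 2.38 and 2.29 times with GMI.

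Over all genes, 15.4% of 11598 tested passed an adjusted p of 0.05 with limma (9.3% higher and 6.12% lower in GMI). Of the 9 members, 6 reached 1 FPKM in at least 2 libraries and were tested, each of them in fact in all 4. Of these, PTGS2, PTGES and PLA2G4A were called higher and HPGD lower, and PTGES2 and PTGR1 were not called. Since the members were picked on this contrast, nothing is read from 4 of 6 against the share over all genes. Some of these calls, like nearly all calls over all genes, were lost when a control was left out. In such fits the lone control gives no spread, so the spread within groups comes from the GMI pair alone. PLA2G4A and HPGD were lost with either control left out, and PTGES without control replicate 2, which left PTGS2. With either GMI library left out, the same members were called as in the full fit. No member changed sign in any fit, but the groups did not overlap for any tested member, so leaving out 1 library could not change a sign. The share of all tested genes whose groups did not overlap was not counted, so nothing is read from the lack of overlap.

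**Figure D2:**
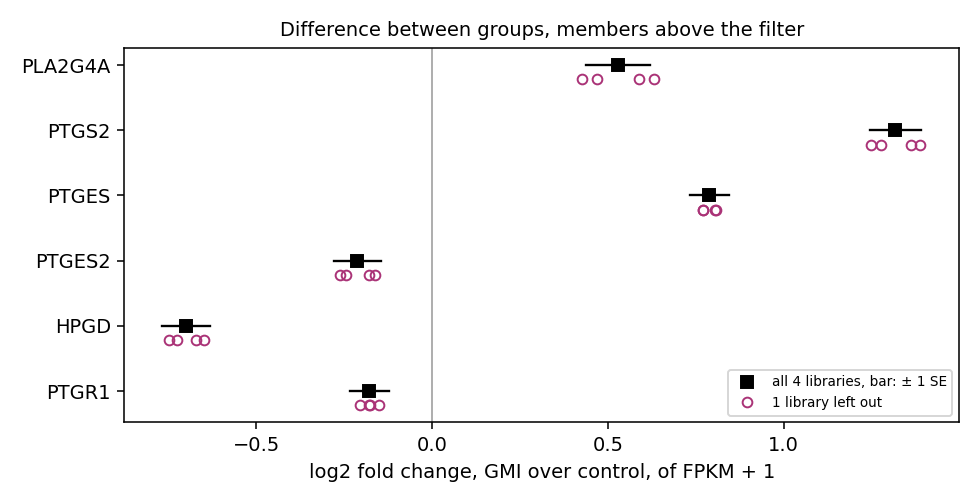
Log2 fold change of FPKM + 1, GMI over control, for the 6 members above the filter; squares with bars are the fit to all 4 libraries ± 1 SE, and open circles the fits with 1 library left out. Every fit shown keeps PLA2G4A, PTGS2 and PTGES above 0 and PTGES2, HPGD and PTGR1 below 0, which groups that do not overlap fix in advance.

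**Figure D3:**
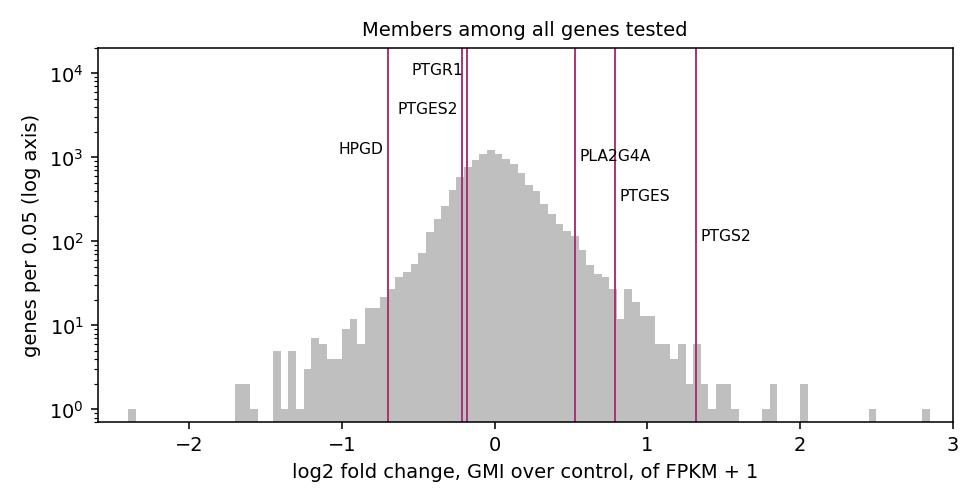
Histogram of the log2 fold changes of FPKM + 1 of all 11598 tested genes (counts on a log axis), with lines at the 6 tested members. PTGS2 at 1.32 and PTGES at 0.79 lie in the upper tail and HPGD at -0.70 in the lower one, while PTGES2 and PTGR1 lie in the body.

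Other genes of arachidonate metabolism, its receptors and its regulators were taken from lists. Of 110 genes in 8 lists, 63 were above the filter, of which 10 rose, 4 fell and 49 did not pass (22.2% called, against 15.4% of all tested genes). The lists were chosen with earlier results of these data known. Nothing is therefore read from 22.2% against 15.4%, and the p-values of the 63 genes are given as a description. Their median log2 fold change was 0.02, against -0.01 for all tested genes. With either control left out, nearly every call over all genes was lost, and so was every call among these 63 genes in the paragraphs that follow. Without GMI replicate 1, 9 passed, and FADS1, LPCAT3, EREG, LTB4R and NR3C1 did not. Without GMI replicate 2, 7 passed, and ACSL3, LPCAT3, LTB4R, MGST3, AKR1C2, NR3C1 and ZFP36 did not. In the fit without the mean-variance trend 11 passed, and ACSL3, AKR1C2 and EREG did not.

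Among 7 tested lipases that release arachidonate or its precursors, 1 rose, 1 fell and 5 did not pass. PLA2G15, a lysosomal phospholipase, rose from 12.6 and 12.2 FPKM to 20.5 and 20.3 FPKM (log2 fold change 0.68, SE 0.062, limma adjusted p = 0.00163), the largest log2 fold change among the 63 tested genes. DAGLB, a diacylglycerol lipase, fell from 12.1 and 12.3 FPKM to 9.02 and 9.40 FPKM (-0.37, adjusted p = 0.0149). Of the secreted phospholipases, PLA2G12A stood at 2.87 and 3.32 FPKM in the controls and 3.24 and 3.28 with GMI (0.06, limma adjusted p = 0.706), while PLA2G2A, PLA2G3, PLA2G5 and PLA2G10 did not exceed 0.04 FPKM. The cytosolic PLA2G4B, PLA2G4C, PLA2G4D, PLA2G4E and PLA2G4F stayed under 1 FPKM, which left PLA2G4A as the only member of its cytosolic group above the filter.

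Of 8 tested genes that supply or re-esterify arachidonate, 3 rose, 1 fell and 4 did not pass. The desaturases FADS1 (18.5 and 20.1 to 26.6 and 24.1 FPKM, log2 fold change 0.38, limma adjusted p = 0.0218) and FADS2 (0.57, adjusted p = 0.00992), which take part in making arachidonic acid, rose. So did ACSL3, an acyl-CoA synthetase (0.33, adjusted p = 0.0258). LPCAT3, which puts arachidonate back into phospholipids, fell from 9.42 and 9.98 FPKM to 7.62 and 7.40 FPKM (-0.33, adjusted p = 0.026).

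None of the 6 other prostanoid synthases above the filter passed with limma (0, and 0 at an unadjusted p under 0.05). The most abundant was AKR1B1, an aldo-keto reductase with prostaglandin F synthase activity, at 2133 and 1927 FPKM in the controls and 2002 and 1937 FPKM with GMI. The cytosolic prostaglandin E synthase PTGES3, also a chaperone partner, stood at 114 and 113 FPKM in the controls and 102 and 110 with GMI (log2 fold change -0.10, limma adjusted p = 0.323). HPGDS and PTGIS, for prostaglandin D2 and prostacyclin, were listed at 0 throughout.

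Of 7 tested genes of breakdown and transport, 2 rose and 0 fell. They were AKR1C1 (64.0 and 56.3 to 87.8 and 90.6 FPKM, log2 fold change 0.56, limma adjusted p = 0.00539) and AKR1C2 (0.27, adjusted p = 0.0215), near-identical reductases between which reads can be split, so both are uncertain. The transporters differed in presence. SLCO2A1, which takes prostaglandins up for breakdown, did not exceed 0.02 FPKM, and ABCC4, an exporter, stood at 2.38 and 2.75 FPKM in the controls and 2.01 and 1.52 with GMI (-0.37, adjusted p = 0.0844).

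None of the other prostanoid receptors PTGER1, PTGER3, PTGDR, PTGDR2, PTGFR, PTGIR and TBXA2R exceeded 0.12 FPKM. PTGFRN, a membrane protein that inhibits the prostaglandin F receptor, was the only gene of that list above the filter and did not pass (0 of 1 with limma, and 1 at an unadjusted p under 0.05). It stood at 6.63 and 7.32 FPKM in the controls and 5.87 and 4.95 with GMI, a log2 fold change of -0.32 (adjusted p = 0.0723, but past the threshold at a mean FPKM of at least 5).

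In the lipoxygenase, leukotriene and epoxide arms 2 of 11 tested genes rose and 0 fell. LTB4R, the leukotriene B4 receptor, rose from 3.44 and 3.91 FPKM to 5.40 and 5.48 FPKM (log2 fold change 0.46, limma adjusted p = 0.0158), and MGST3, a microsomal glutathione transferase, from 26.1 and 26.1 to 32.4 and 34.4 FPKM (0.34, adjusted p = 0.0143). ALOX5, which starts leukotriene synthesis, was under the filter at 0.17 and 0.23 FPKM in the controls and 0.62 and 0.51 with GMI. The most abundant gene of the list, EPHX1, the microsomal epoxide hydrolase, stood at 149.9 and 142 FPKM in the controls and 157 and 149 with GMI (0.07, adjusted p = 0.486).

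Of 16 tested regulators of PTGS2 RNA, 2 rose, 1 fell and 13 did not pass. CEBPB, a transcription factor of the family that binds the C/EBP pattern, rose from 56.7 and 55.5 FPKM to 87.2 and 80.1 FPKM (log2 fold change 0.57, SE 0.064, limma adjusted p = 0.00323). ZFP36, which binds AU-rich elements and promotes decay of the RNA that carries them, rose from 12.9 and 13.7 FPKM to 16.9 and 17.2 FPKM (0.34, adjusted p = 0.0201). NR3C1, the glucocorticoid receptor, whose ligands repress PTGS2, fell from 17.7 and 19.6 FPKM to 14.3 and 14.4 FPKM (-0.35, adjusted p = 0.0228). The NF-κB subunit genes RELA (0.15, adjusted p = 0.203) and NFKB1 (-0.20, adjusted p = 0.181) did not pass, nor did ELAVL1, which stabilises PTGS2 RNA (-0.20, adjusted p = 0.0909). FOS, a subunit of AP-1, was under the filter at 0.15 and 0.19 FPKM in the controls and 0.62 and 0.71 with GMI. JUN, the most abundant of the list, stood at 91.1 and 97.2 FPKM in the controls and 86.3 and 93.4 with GMI (-0.07, adjusted p = 0.538).

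Genes that respond to cAMP, the second messenger of EP2 and EP4, showed 0 rises and 1 fall among 7 tested of 11 listed. EREG, an EGF receptor ligand, fell from 14.4 and 15.8 FPKM to 10.95 and 12.1 FPKM (log2 fold change -0.36, limma adjusted p = 0.0287). This single call of the list was also lost without GMI replicate 1 (adjusted p = 0.0854) and in the fit without the trend, where 0 of 7 passed (2 at an unadjusted p under 0.05). SIK1, the most abundant of the list, stood at 89.5 and 96.9 FPKM in the controls and 107.7 and 104.6 with GMI (0.19, adjusted p = 0.0917). AREG, CREM, CRTC2, PDE4B and PDE4D were also tested and did not pass. NR4A1, NR4A2, NR4A3 and PER1 were under the filter and not tested. NR4A1 stood at 0.15 and 0.19 FPKM in the controls and 0.26 and 0.48 with GMI. NR4A2 stood at 0.20 and 0.16 against 0.43 and 0.31, and NR4A3 at 0.03 and 0.05 against 0.08 and 0.08. PER1 was lower with GMI, at 0.71 and 0.71 against 0.56 and 0.51.

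**Figure D4:**
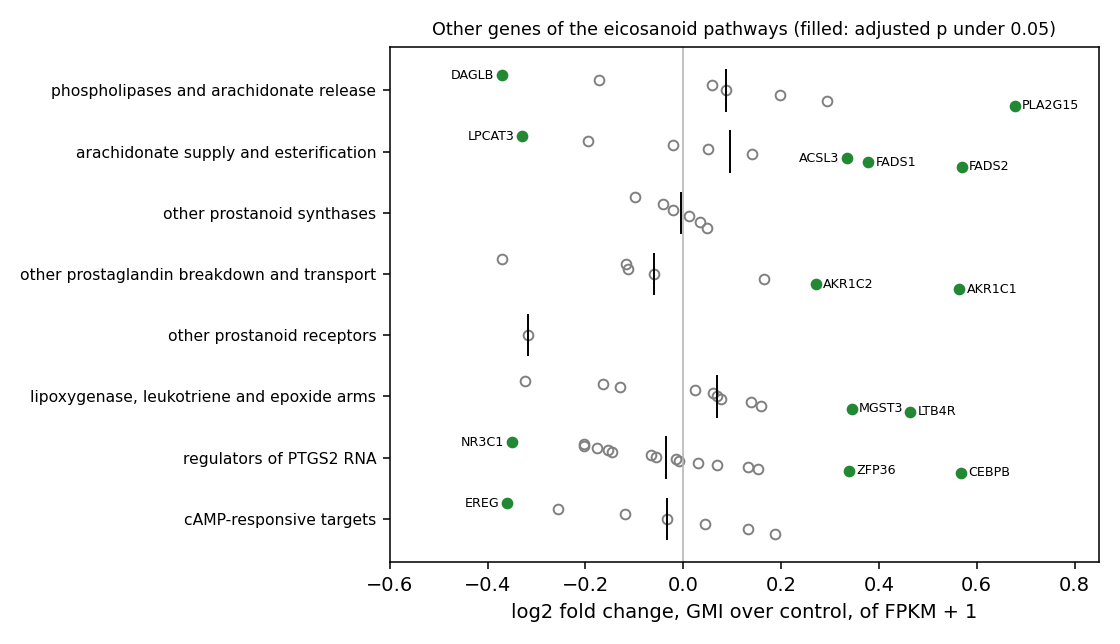
Log2 fold change of FPKM + 1, GMI over control, for the 63 tested genes of 8 other lists; filled and named points passed an adjusted p of 0.05 with limma, and black lines are list medians. The 14 filled points comprise 10 to the right of 0 and 4 to the left, none of them in the lists of other prostanoid synthases or receptors.

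The tested genes whose profile over the 4 libraries was nearest to that of PTGS2, by Euclidean distance of log2(FPKM + 1) about each gene's own mean, were FAM102A (distance 0.096), NDRG4 (0.109) and AC008372.1 (0.111). FAM102A stood at 27.1 and 27.9 FPKM in the controls and 68.0 and 68.4 FPKM with GMI. AC008372.1 was listed at 0 in both controls and at 1.39 and 1.45 FPKM with GMI. It passed the filter only through the GMI group, and the size of its change rests on the added 1. Nearest to HPGD were FGF14 (0.035), EDN1 (0.037) and KRT81 (0.046), of which EDN1, endothelin 1, stood at 10.4 and 10.1 FPKM in the controls and 5.60 and 6.31 FPKM with GMI. Over 4 libraries in 2 groups, such likeness rests almost wholly on the size of the group difference.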

How the data were processed

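RNA of 2 control and 2 GMI libraries was measured by RNA sequencing. The deposited files hold FPKM values made by the authors, to 2 decimals, for each Ensembl gene. The tools listed in the submitters' processing notes are HISAT2 2.0.1, cutadapt 1.9.1, HTSeq 0.6.1 and bcl2fastq 2.17.1.14, and the build is GRCh37. The sources used here do not give the annotation release, the strand setting or the gene lengths.

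Members and gene lists were chosen with earlier results of these data known. Genes with at least 1 FPKM in at least 2 of 4 libraries were fitted as log2(FPKM + 1) by group alone in limma 3.58.1 (R 4.3.3), with eBayes and its intensity trend. Benjamini-Hochberg adjustment ran over all genes tested (threshold 0.05). The prior had 4.69 degrees of freedom. The procedure was tested on simulated data. From the other lists, genes past the threshold and the most abundant gene are named, and further genes were named after their values were seen.

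Approximate fragments were derived from the FPKM steps of genes of up to 200 nt (95.8% to 96.8% of values whole within 0.006 FPKM) and GENCODE 29 exon lengths, which are on another build. Replicates differed beyond sampling noise (chi-square per degree of freedom 4.86 for control and 9.59 for GMI). Upstream sequences came from RefSeq (GRCh38.p14), where 9 of 9 members matched. Python 3.11.15, numpy 2.4.6 and pandas 2.3.3 were used. Alternatives covered the pseudocount, the filter, the trend, the scaling, leaving out each library and a replicate block.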

Additional observations from a re-analysis of the deposited data

How the results depend on the processing

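The 6 tested members kept their direction in all 11 alternatives, and PTGES2 and PTGR1 were called in none. Their groups did not overlap, so only TPM scaling and median centring could have changed a direction. With no filter, limma called 1 of 26758 genes (4500 at an unadjusted p under 0.05). It called 0 of 8 members (6 unadjusted) and 0 of 98 other pathway genes (25 unadjusted). The cause was not tested. With 1 library left out, 45 to 1369 genes, 1 to 4 members and 0 to 9 other pathway genes passed, in fits that assume the lone library of a group to vary like the other group. The low ends came without control replicate 2 (45 genes and 1 member), and without control replicate 1 it was 74 genes and 2 members; 945 genes passed without GMI replicate 2. PTGS2 was called in 10 of 11 alternatives, PTGES in 9, and PLA2G4A and HPGD in 8 each. The pseudocount, the stricter filter, the fit without the trend, TPM scaling and median centring kept the count of called members at 4. Without the trend 11 other pathway genes passed in place of 14. The same replicate numbers occur in both groups, but no label says that they pair libraries, and same-numbered deviations correlated at -0.044 across 11598 genes; with a replicate block 2000 genes, 4 members and 14 other pathway genes passed. The 2 libraries per group limit every statement on spread, and depth limits PTGER2, PTGER4, PTGS1 and PACERR.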
